A study of Mus musculus with 10 samples.

Results

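Cell cycle and DNA replication genes were examined in regulatory T cells (Tregs) sorted from the mouse spleen. The set was 36 named genes, each found by its gene symbol in the probe table of the array, out of 19938 genes with a value. Of these, 13 make or copy DNA, and 23 drive or mark the cell cycle and mitosis. The 23 are called mitosis genes below, although Ccne1 and Ccne2 among them are cyclins of S phase entry. The groups were FR3 Klrg1+ (CD62Llo CD69+ Klrg1+, 1 array), FR3 Klrg1- (CD62Llo CD69+ Klrg1-, 4 arrays), FR2 (CD62Llo CD69- Klrg1-, 2 arrays) and FR1 (CD62Lhi CD69- Klrg1-, 2 arrays). All cells were CD4+ and carried a red fluorescent reporter of Foxp3, the transcription factor that defines Tregs, and all came from C57BL/6 females of 9 to 14 weeks. CD62L is a lymph node homing receptor, CD69 an activation marker and Klrg1 a receptor of differentiated lymphocytes. Another array was titled FR3 but carried the marker text of FR1, and because these labels conflict its values are given without a comparison. The labels call the arrays biological replicates without saying how many mice each pooled, so p-values rest on the spread between arrays and not between mice. For each gene that spread was pooled over all groups and moderated with the spread of other genes. The SEs and p-values are therefore not those of the compared arrays alone.

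A resting lymphocyte holds its replication genes and its mitosis genes silent or low. On entry into the cycle, E2F factors switch on genes that license origins, unwind DNA and supply nucleotides, and later the mitotic genes rise, which in many cases carry a CCAAT box and a cell cycle genes homology region (CHR) near their start. The DREAM complex represses both classes in quiescent cells. Tregs with an activated surface phenotype are known to divide more in vivo than CD62Lhi Tregs. In sorted populations, more cycling cells and more RNA per cycling cell cannot be told apart.

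The promoters are shown first because the replication and mitosis genes differ in these letters. RefSeq windows (GRCm38.p6) of 250 bases before to 50 after the start were on hand for 30 of the 36 genes. The E2F core was searched as TTCCCGC or as TTCGCGC or as TTGCCGC or as TTGGCGC, the CHR element as TTTGAA or as TTCGAA, and the CCAAT box by those letters, on both strands. In 1 of the 31 windows of these genes an E2F match shared bases with a CCAAT match, and CHR matches shared none with either. Below are the windows of Mcm6 and Mcm5, the replication genes that rose in FR3 Klrg1- over FR2, of Mki67 and Top2a, the mitosis genes that differed between groups, and of Ccnb2, which did not pass in any comparison of groups. They lie at chr1:128359656-128359955 (minus strand), chr8:75109259-75109558 (plus), chr7:135716330-135716629 (minus), chr11:99024140-99024439 (minus) and chr9:70421505-70421804 (minus). Each is written 5′ to 3′ on the gene's strand, with E2F core and CHR matches in capitals.
Mcm6: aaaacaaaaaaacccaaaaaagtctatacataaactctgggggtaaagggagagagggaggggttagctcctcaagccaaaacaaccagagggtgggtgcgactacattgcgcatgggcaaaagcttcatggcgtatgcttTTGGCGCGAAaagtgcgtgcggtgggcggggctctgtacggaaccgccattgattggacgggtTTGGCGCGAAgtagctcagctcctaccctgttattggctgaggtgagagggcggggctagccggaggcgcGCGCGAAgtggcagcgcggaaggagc
Mcm5: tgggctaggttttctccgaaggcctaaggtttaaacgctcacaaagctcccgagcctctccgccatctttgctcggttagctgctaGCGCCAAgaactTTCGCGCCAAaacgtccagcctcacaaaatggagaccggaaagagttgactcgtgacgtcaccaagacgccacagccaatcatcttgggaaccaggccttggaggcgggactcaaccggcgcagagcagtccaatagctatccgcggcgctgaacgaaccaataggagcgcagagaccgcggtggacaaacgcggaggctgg
Mki67: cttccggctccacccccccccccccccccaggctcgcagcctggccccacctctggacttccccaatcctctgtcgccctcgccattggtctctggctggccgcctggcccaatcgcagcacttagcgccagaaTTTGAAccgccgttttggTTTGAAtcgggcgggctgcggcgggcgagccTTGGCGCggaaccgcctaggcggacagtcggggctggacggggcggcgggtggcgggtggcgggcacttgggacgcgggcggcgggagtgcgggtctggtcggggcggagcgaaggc
Top2a: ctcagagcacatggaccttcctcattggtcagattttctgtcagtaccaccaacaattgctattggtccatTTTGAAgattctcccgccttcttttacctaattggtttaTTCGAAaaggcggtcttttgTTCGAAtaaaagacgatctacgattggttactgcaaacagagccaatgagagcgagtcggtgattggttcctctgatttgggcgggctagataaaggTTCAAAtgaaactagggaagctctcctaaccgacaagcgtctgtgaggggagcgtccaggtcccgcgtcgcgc
Ccnb2: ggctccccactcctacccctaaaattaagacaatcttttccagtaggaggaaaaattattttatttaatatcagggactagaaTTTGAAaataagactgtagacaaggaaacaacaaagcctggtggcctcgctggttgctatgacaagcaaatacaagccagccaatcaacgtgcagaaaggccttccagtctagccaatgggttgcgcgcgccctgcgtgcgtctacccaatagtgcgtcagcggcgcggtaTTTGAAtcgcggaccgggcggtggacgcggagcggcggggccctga

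Mcm6 and Mcm5 held E2F cores and no CHR element, Top2a and Ccnb2 held CHR elements and no E2F core, and Mki67 held both. Of the replication genes that differed between groups and are not shown, Mcm7 held both over its 2 windows. Tyms held neither, and no CCAAT box. Over the 12 replication genes with a window, 7 (58.3%) held an E2F core and 3 (25%) a CHR element. Over the 18 mitosis genes with a window, 2 (11.1%) held an E2F core and 14 (77.8%) a CHR element. Of all 27025 genes in the promoter table, 10.9% held an E2F core, 21.7% a CHR element and 41.1% a CCAAT box. Among the 15614 of these with an array value the shares were 14.7%, 19% and 41.7%. The CCAAT box was found in 83.3% of either class. A match is a description of the letters and not a bound site, and no match says only that these letters are not in the window.

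**Figure D1:**
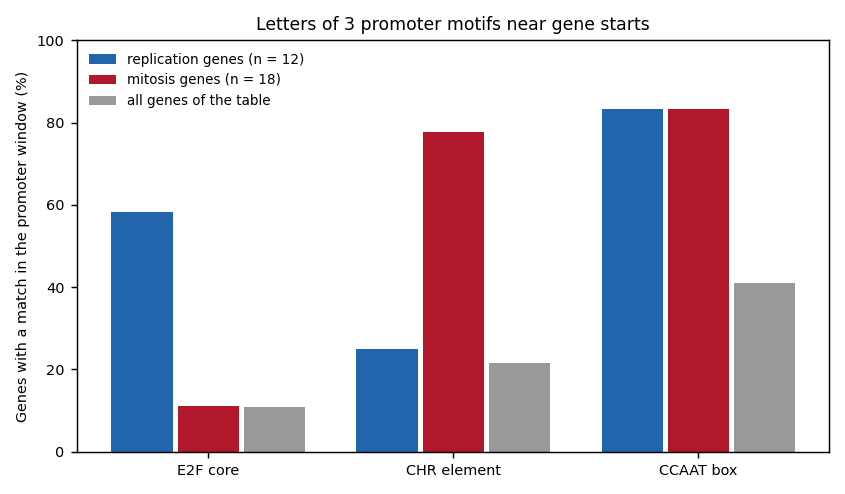
Share of genes with a match to each motif in the promoter window (y axis, percent), for 12 replication genes, 18 mitosis genes and all genes of the RefSeq promoter table. The E2F core was found in 58.3% of the replication genes and the CHR element in 77.8% of the mitosis genes, against 10.9% and 21.7% of all genes.

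The arrays formed 2 sets that cut across the groups. The first held FR3 Klrg1- replicates 1 and 2, FR2 and FR1, and the second held FR3 Klrg1+ and FR3 Klrg1- replicates 3 and 4. Arrays correlated at 0.972 to 0.992 within a set and at 0.901 to 0.921 between sets, and the array in no group correlated with the second set at 0.973 to 0.975. The labels do not say what separates the sets. Fold changes below therefore come from the set that holds both groups. The Treg markers were high on every array: Foxp3 lay between 9.63 and 10.93 and Cd4 between 9.86 and 11.65 (RMA, log2). Klrg1 stood at 12.33 on the FR3 Klrg1+ array and at 12.41 on the array in no group, against 5.43 to 7.47 on the others, while in the first set Cd69 transcript was at 12.02 and 12.16 in FR3 Klrg1-, 11.86 and 12.17 in FR2, and 12.11 and 12.41 in FR1. Mean levels of the marker lists of other cell types ran from 5.20 to 5.43 for B cells, 5.92 to 6.14 for erythroid cells, 5.33 to 5.81 for macrophages and monocytes, 5.58 to 5.85 for NK and CD8 T cells and 5.97 to 6.45 for plasma cells. The mean of the Treg and T cell markers was 11.29 or higher.

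Levels are RMA log2 intensities, on which a difference of 1 is a doubling. Probes differ in brightness, so a level is read across arrays for 1 gene and not between genes. The mean over the 13 replication genes ran from 7.93 to 8.24 on the arrays of the first set and from 7.57 to 7.79 on those of the second, and the 2 ranges did not overlap. The mean over the 23 mitosis genes ran from 6.21 to 6.51 in the first set and from 6.48 to 6.53 in the second. Kif4, a chromokinesin, lay below percentile 25 of the genes on all 10 arrays and Bub1, a spindle checkpoint kinase, on 9, so differences of these genes are hard to measure. Nusap1 did so on 3 arrays and Cenpe on 1.

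The comparison of FR2 with FR1 sets CD62Llo against CD62Lhi Tregs that lack CD69 and Klrg1. Mki67, whose protein marks cycling cells, was at 8.27 and 8.32 in FR2, against 7.34 and 7.49 in FR1. Top2a, the topoisomerase that untangles chromosomes before division, was at 7.73 and 7.91 in FR2, against 7.05 and 7.19 in FR1. Both FR2 arrays lay above both FR1 arrays for each gene, and the groups did not overlap. Mki67 rose by 0.88 ± 0.16 (SE, n = 2 and 2, adjusted p = 0.00622) and Top2a by 0.70 ± 0.14 (adjusted p = 0.0106, limma with Benjamini-Hochberg adjustment over all genes). In the other direction Mcm7, a subunit of the replicative helicase, was at 7.49 and 7.90 in FR2, against 8.32 and 8.43 in FR1, and fell by 0.68 on the log2 scale (SE 0.18, adjusted p = 0.0443).

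Of the 23 mitosis genes 2 rose and 0 fell in FR2, while 1.96% of all genes tested were called higher and 2.3% lower. Their median log2 fold change was 0.135, against 0.02 over all genes, and 18 of the 23 values were above 0. The kinesins Kif11 (0.55 ± 0.20, adjusted p = 0.162) and Kif23 (0.51 ± 0.16, adjusted p = 0.101) did not pass. Kif11, which pushes spindle poles apart, was at 6.57 and 7.09 in FR2, against 6.04 and 6.54 in FR1. Values close to 0 were found for Cdk1, the kinase that triggers mitosis (-0.07 ± 0.13), for its partner cyclin Ccnb2 (0.07 ± 0.14), for Cdc20, an activator of the anaphase-promoting complex (-0.05 ± 0.14), and for the mitotic kinase Aurka (0.02 ± 0.14). Birc5, a chromosomal passenger protein, stood at 0.10 ± 0.18 and the polo kinase Plk1 at 0.19 ± 0.18. Bub1b, a spindle checkpoint protein (0.38 ± 0.16, adjusted p = 0.235 in limma), the cyclin Ccna2 (0.17 ± 0.14) and the kinase Aurkb (0.135 ± 0.13) lay above 0 without passing. Whether Mki67 and Top2a differ from the other mitosis genes was not tested.

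Of the 13 replication genes 0 rose and 1 fell (3 were at an unadjusted p under 0.05). Their median was -0.03, with 5 values above 0 and 8 below. Mcm6 was at 9.64 and 9.56 in FR2, against 9.00 and 9.28 in FR1, without passing (0.46 ± 0.15, adjusted p = 0.0989). Tyms, the enzyme that makes thymidylate, was at 7.11 and 7.13 in FR2, against 6.31 and 6.90 in FR1 (0.52 ± 0.18, adjusted p = 0.123). Pcna, the sliding clamp of DNA polymerases, gave -0.24 ± 0.13 and Mcm2 -0.24 ± 0.14, neither of which passed.

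Other genes of the pathway moved in both directions in FR2. Of 58 other mitosis genes 5 rose and 0 fell. They included Racgap1, a cytokinesis regulator (0.88 ± 0.21), Knl1, a kinetochore scaffold (0.75 ± 0.16), Lmnb1, a nuclear lamin (0.75 ± 0.13), and Hmgb2, a chromatin protein of dividing cells (0.74 ± 0.12). Knl1 had a mean of 4.945 in FR1, under percentile 25 of the genes (5.21 and 5.10 on the FR1 arrays), so its change is hard to measure. Of 36 other replication genes 1 rose, the polymerase subunit Pola1 (0.82 ± 0.16), and 2 fell, the licensing factor Cdt1 (-0.48 ± 0.13) and Rpa2, which binds single-stranded DNA (-0.52 ± 0.14). Of 22 CDK inhibitors and quiescence genes 2 rose, the inhibitor Cdkn2c (0.76 ± 0.13) and the DREAM subunit Rbl2 (0.79 ± 0.14), and 1 fell, the inhibitor Cdkn2d (-0.51 ± 0.13). Of 14 genes of the D cyclins, their kinases and the E2F family 0 passed in limma, and 4 were at an unadjusted p under 0.05. Of the other cell type markers 0 of 8 for B cells, 0 of 7 for erythroid cells and 0 of 9 for macrophages and monocytes passed, while Prdm1, which effector Tregs also express, rose and Jchain fell among 7 plasma cell markers, and Prf1 fell among 7 NK and CD8 T cell markers. Jchain had means of 3.64 in FR2 and 4.485 in FR1, also under percentile 25, so its change is hard to measure too. At an unadjusted p under 0.05 stood 1 B cell, 1 erythroid and 0 macrophage and monocyte markers.

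The calls of FR2 against FR1 rest on few arrays. In limma, Mki67 had an adjusted p of 0.0786 without FR1 replicate 1, 0.0671 without FR2 replicate 1 and 0.054 without FR2 replicate 2, and Top2a had 0.102, 0.0544 and 0.0996, while Mcm7 lost its call without FR1 replicate 1 (0.136) or 2 (0.276), FR2 replicate 1 (0.459) or FR3 Klrg1- replicate 1 or 2 (0.0607 each). Top2a has a second, dim probe set between 2.93 and 4.71 over the arrays, and the mean of both gave 0.29 (adjusted p = 0.286).

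FR3 Klrg1- cells were set against FR1 to span the gates for both CD62L and CD69, here on replicates 1 and 2 of FR3 Klrg1-. The change with the lowest p among the replication genes was in Mcm6, a helicase subunit. It was at 10.19 and 10.43 in FR3 Klrg1-, with FR2 at 9.64 and 9.56 and FR1 at 9.00 and 9.28. The 3 groups did not overlap, with FR3 Klrg1- highest and FR1 lowest. Mcm6 rose by 1.17 ± 0.15 over FR1 (adjusted p = 7.77e-05) and by 0.71 ± 0.15 over FR2 (adjusted p = 0.0112, limma with Benjamini-Hochberg adjustment).

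Tyms also rose over FR1, by 0.60 ± 0.18 (adjusted p = 0.0492), with 7.03 and 7.38 in FR3 Klrg1-, against 6.31 and 6.90 in FR1. The 2 FR1 arrays lay far apart for this gene, and the higher of them was close to the lower FR3 Klrg1- array. Rrm1, the large subunit of ribonucleotide reductase, was at 9.28 and 9.39 in FR3 Klrg1-, against 8.71 and 8.93 in FR1 (0.51 ± 0.16, adjusted p = 0.0606). Its small subunit Rrm2 was at 7.23 and 7.25 in FR3 Klrg1-, against 7.22 and 7.20 in FR1 (0.03 ± 0.14). The 2 subunits of the same enzyme thus differed in their values, a difference that was not tested.

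Among the helicase genes the values in FR3 Klrg1- against FR1 spread widely. Beside Mcm6, Mcm5 gave 0.345 ± 0.13, Mcm3 0.18 ± 0.16, Mcm2 0.03 ± 0.14, Mcm4 0.00 ± 0.13 and Mcm7 -0.365 ± 0.18, none of which passed. Mcm4 was within 8.67 and 8.78 on all 6 arrays of the first set. Cdc45, which joins the helicase at firing origins, gave 0.19 ± 0.14, the origin factors Mcm10 and Cdc6 gave 0.03 ± 0.12 and -0.11 ± 0.16, and Pcna 0.02 ± 0.13. In all, 2 of 13 replication genes rose and 0 fell in FR3 Klrg1- over FR1, while 4.39% of all genes were called higher and 3.79% lower. Their median was 0.03, against 0.02 over all genes.

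Of the 23 mitosis genes 1 rose over FR1 and 0 fell, with a median of 0.11. Top2a was at 7.53 and 7.82 in FR3 Klrg1-, against 7.05 and 7.19 in FR1, a rise of 0.555 ± 0.14 (adjusted p = 0.024, limma). Bub1b, a spindle checkpoint protein, was at 6.60 and 6.70 in FR3 Klrg1-, against 5.90 and 6.35 in FR1, and did not pass (0.525 ± 0.16, adjusted p = 0.0636). Mki67 was at 7.40 and 7.86 in FR3 Klrg1-, so that it overlapped with FR1 (0.21 ± 0.16, adjusted p = 0.594). The cyclins Ccna2 (-0.21 ± 0.14) and Ccne1 (-0.34 ± 0.13), Nusap1, a spindle protein (-0.22 ± 0.13), and Cdk1 (-0.15 ± 0.13) had values below 0 and did not pass.

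Other replication genes that rose in FR3 Klrg1- over FR1 were Dtl, which directs Cdt1 to destruction (0.88 ± 0.15), Uhrf1, a partner of the maintenance methyltransferase (0.61 ± 0.17), and the helicase cofactor Gins1 (0.54 ± 0.15), while Cdt1 fell (-0.49 ± 0.13), giving 3 up and 1 down of 36. Of the 58 other mitosis genes 6 rose, led by the kinesin Kif18a (0.86 ± 0.15), Cks2 (0.77 ± 0.18), Racgap1 (0.72 ± 0.21) and Knl1 (0.60 ± 0.16), and Stmn1 fell (-0.53 ± 0.14). The FR1 means of Gins1 (5.07) and Knl1 (4.945) lay under percentile 25 of the genes (5.21 and 5.10 on the FR1 arrays), so their changes are hard to measure. Of 14 genes of the D cyclins, kinases and E2F family Cdk6 rose (0.52 ± 0.13), and Cdk2 (-0.54 ± 0.14) and E2f2 (-0.48 ± 0.13) fell. Among 22 CDK inhibitors and quiescence genes Cdkn2c (0.91 ± 0.13) and Rbl2 (0.64 ± 0.14) rose, and Cdkn2d fell by 1.51 on the log2 scale (SE 0.13, adjusted p = 2.53e-06 in limma). Of 8 B cell markers 0 rose and Cd79a fell, of 7 plasma cell markers Prdm1 rose, of 7 NK and CD8 T cell markers Klrb1c rose and Cd8b1 and Prf1 fell, and of the erythroid and macrophage and monocyte markers 0 passed in limma (0 and 1 at an unadjusted p under 0.05). Klrb1c had a mean of 4.72 in FR1, also under percentile 25. Among 8 Treg and T cell markers 4 rose and 1 fell, with a median of 0.445, against 0.02 over all genes.

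Mcm6 kept its call over FR1 without each of the 8 replicated arrays in turn, at adjusted p from 2.72e-05 to 0.00308 in limma, and lost it when the array set was left out of the fit (0.71, adjusted p = 0.356). Without FR1 replicate 1 the change of Tyms was 0.31, against 0.60 with all arrays, and its call was lost (adjusted p = 0.42 in limma). Tyms also lost its call without FR2 replicate 1 or 2 (0.0772 each) or FR3 Klrg1- replicate 2 (0.433), and Top2a without FR1 replicate 1 (0.172) or 2 (0.0689) or FR3 Klrg1- replicate 2 (0.319).

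FR3 Klrg1- against FR2 shows what differs with the CD69 gate among CD62Llo cells. Few genes of either class passed, and the difference between the classes was not tested. Of the 13 replication genes 10 had values above 0, with a median of 0.275, 2 of them rose and 0 fell. Of the 23 mitosis genes 16 had values below 0, with a median of -0.10, 1 of them fell and 0 rose. Over all genes the median was 0.00, and 2.81% were called higher and 1.94% lower. This comparison shares its arrays with those above, so its values are not a separate observation.

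Mcm5 was at 8.06 and 7.98 in FR3 Klrg1-, against 7.41 and 7.56 in FR2, and rose by 0.535 ± 0.13 (adjusted p = 0.0308, limma with Benjamini-Hochberg adjustment). Mcm6 rose as given above. Mki67 was lower in FR3 Klrg1- with 7.40 and 7.86, against 8.27 and 8.32 in FR2, and fell by 0.67 on the log2 scale (SE 0.16, adjusted p = 0.0304). FR1 at 7.34 and 7.49 lay beside FR3 Klrg1-, so of the 3 groups FR2 was highest in Mki67. Top2a did not follow Mki67 here, with -0.15 ± 0.14 (adjusted p = 0.726).

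Of the other 11 replication genes none passed. Those above 0.25 were Mcm3 0.36 ± 0.16, Rrm1 0.35 ± 0.16, Mcm7 0.31 ± 0.18, Cdc45 0.28 ± 0.14, Mcm2 0.28 ± 0.14 and Pcna 0.26 ± 0.13. Tyms (0.08 ± 0.18) and Mcm4 (0.03 ± 0.13) lay closer to 0, and Cdc6 (-0.09 ± 0.16), Mcm10 (-0.09 ± 0.12) and Rrm2 (-0.20 ± 0.14) lay below it. Among the mitosis genes the values furthest below 0 after Mki67 were Ccna2, the cyclin of S phase and early mitosis (-0.38 ± 0.14, adjusted p = 0.181), Nusap1 (-0.33 ± 0.13) and Ccne1, the cyclin that starts S phase (-0.27 ± 0.13). Of the 36 other replication genes 5 rose and 0 fell, among them the clamp loader subunits Rfc3 (0.66 ± 0.14) and Rfc4 (0.62 ± 0.13), Dtl (0.65 ± 0.15) and Tipin, a fork protection factor (0.57 ± 0.13). Of the 58 other mitosis genes 27 had values above 0 and 31 below, with a median of -0.03, 1 rose, Kif18a (0.63 ± 0.15), and 1 fell, the phosphatase Cdc25b (-1.03 ± 0.16). The cyclin D kinase Cdk4 rose (0.63 ± 0.14), E2f2 fell (-0.64 ± 0.13) and Cdkn2d fell (-1.003 ± 0.13). Among 8 Treg and T cell markers 7 had values above 0, with a median of 0.28, and 1 rose. Of the marker lists of other cell types 1 gene passed, Klrb1c (1.09 ± 0.14). Its mean of 4.78 in FR2 was under percentile 25 of the genes (5.25 and 5.22 on the FR2 arrays).

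In limma, Mcm5 lost its call without FR3 Klrg1- replicate 1 (0.26) or 2 (0.135) or FR2 replicate 1 (0.294) or 2 (0.0814), Mcm6 without FR3 Klrg1- replicate 2 (0.153) or FR2 replicate 1 (0.079) or 2 (0.09), and Mki67 without FR3 Klrg1- replicate 1 (0.405) or FR2 replicate 1 (0.179) or 2 (0.157). These numbers are adjusted p-values. Without FR3 Klrg1- replicate 1 the change of Mki67 was -0.44, against -0.67 with all arrays.

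The genes not yet described stayed without a call in every comparison of groups. Ccne2, a cyclin of S phase entry, gave 0.28 ± 0.20 for FR2 over FR1 and 0.30 ± 0.20 for FR3 Klrg1- over FR1, with 1 FR1 array at 5.32 and the other at 6.03. Tpx2, a spindle assembly factor, gave 0.25 ± 0.14 and 0.11 ± 0.14 in these comparisons, and Cenpf, a kinetochore protein, 0.11 ± 0.13 and -0.02 ± 0.13. Kif20a, a kinesin of cytokinesis, gave 0.18 ± 0.13 for FR3 Klrg1- over FR1, Cenpe 0.24 ± 0.14, Cenpa 0.12 ± 0.12 and the passenger kinase Aurkb 0.09 ± 0.13. The dim Bub1 gave 0.27 ± 0.18 for FR2 over FR1 and 0.17 ± 0.18 for FR3 Klrg1- over FR1. For FR3 Klrg1- over FR2 it gave -0.10 ± 0.18, and for FR3 Klrg1+ over FR3 Klrg1- in the second set -0.51 ± 0.215.

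**Figure D2:**
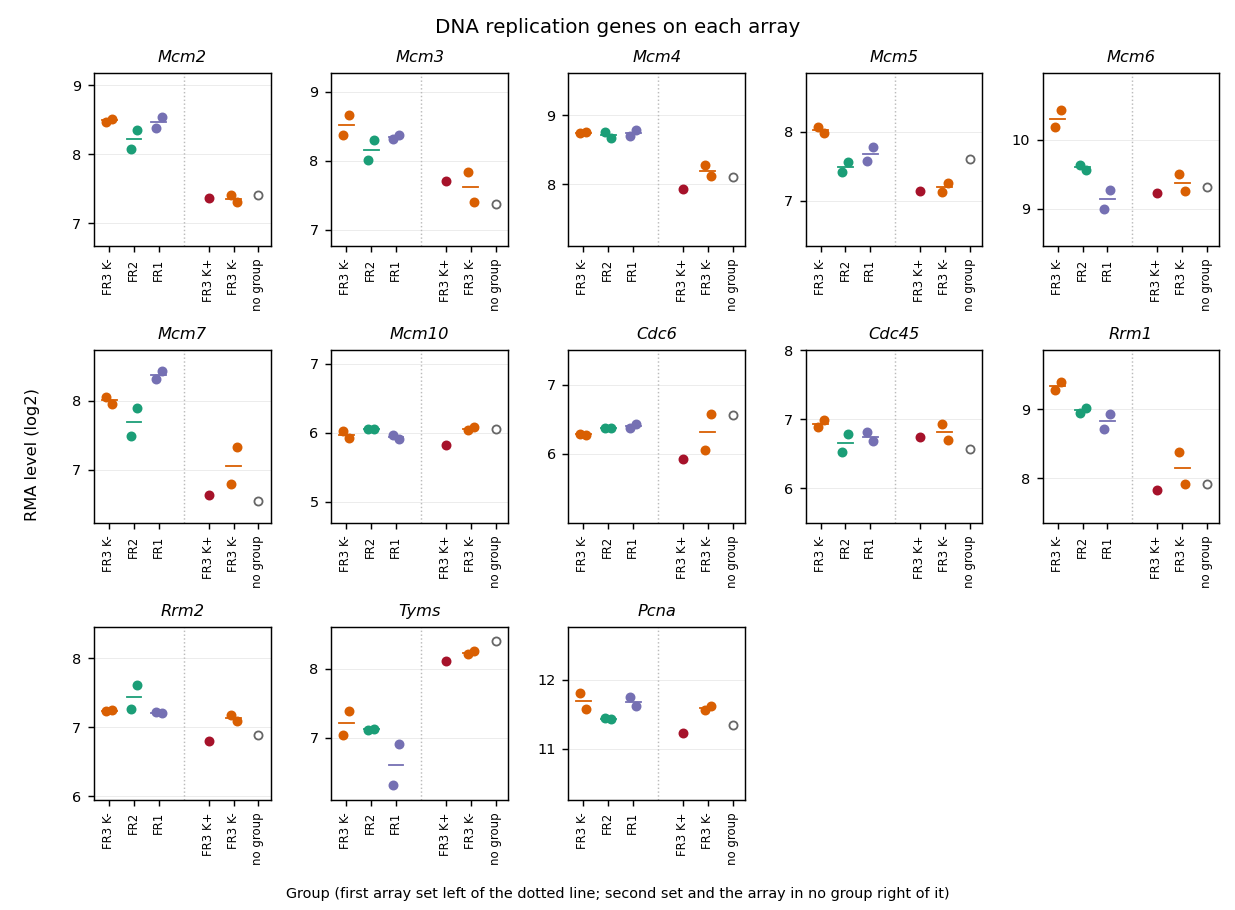
RMA level (log2, y axis) of the 13 replication genes on each array, with 1 point per array and a line at the mean of groups with 2 arrays in a set. FR3 K- and FR3 K+ stand for FR3 Klrg1- and FR3 Klrg1+. Mcm6 lies at 10.19 and 10.43 in FR3 Klrg1- of the first set, above FR2 and FR1, and most Mcm genes are lower on the second set.

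**Figure D3:**
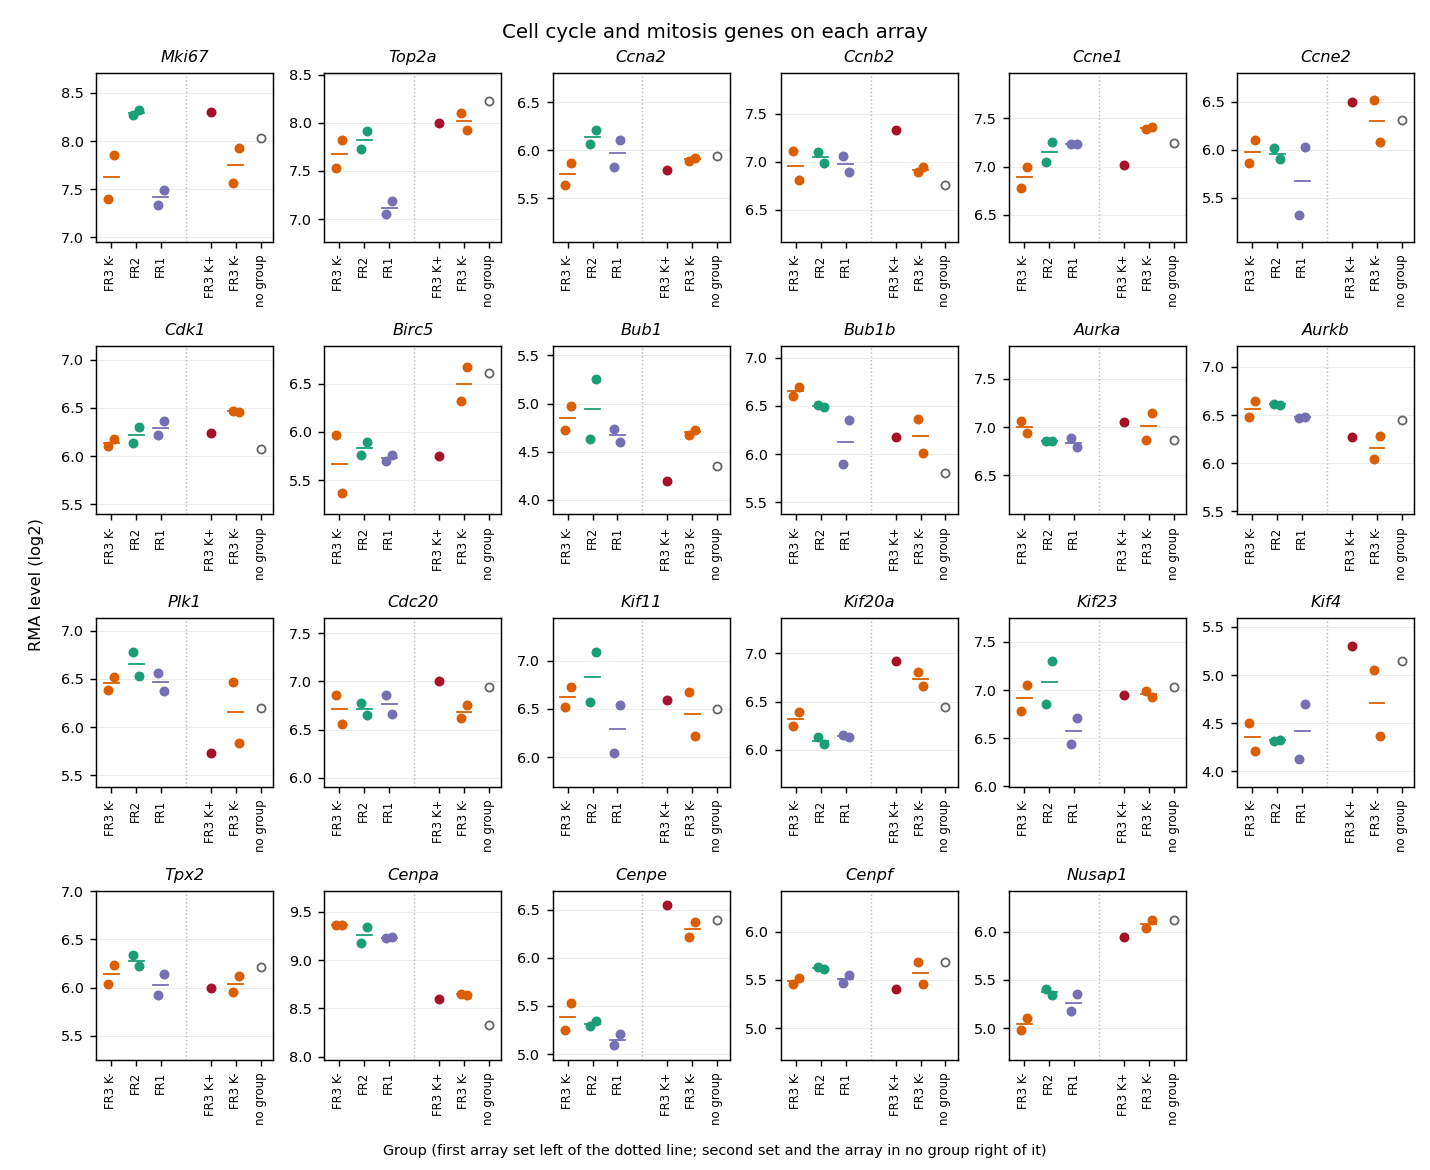
RMA level (log2, y axis) of the 23 cell cycle and mitosis genes on each array, with 1 point per array and a line at the mean of groups with 2 arrays in a set. Mki67 lies at 8.27 and 8.32 in FR2, above FR3 Klrg1- and FR1 of the same set, while Ccnb2, Cdc20 and Aurka lie between 6.56 and 7.33 over all arrays.

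**Figure D4:**
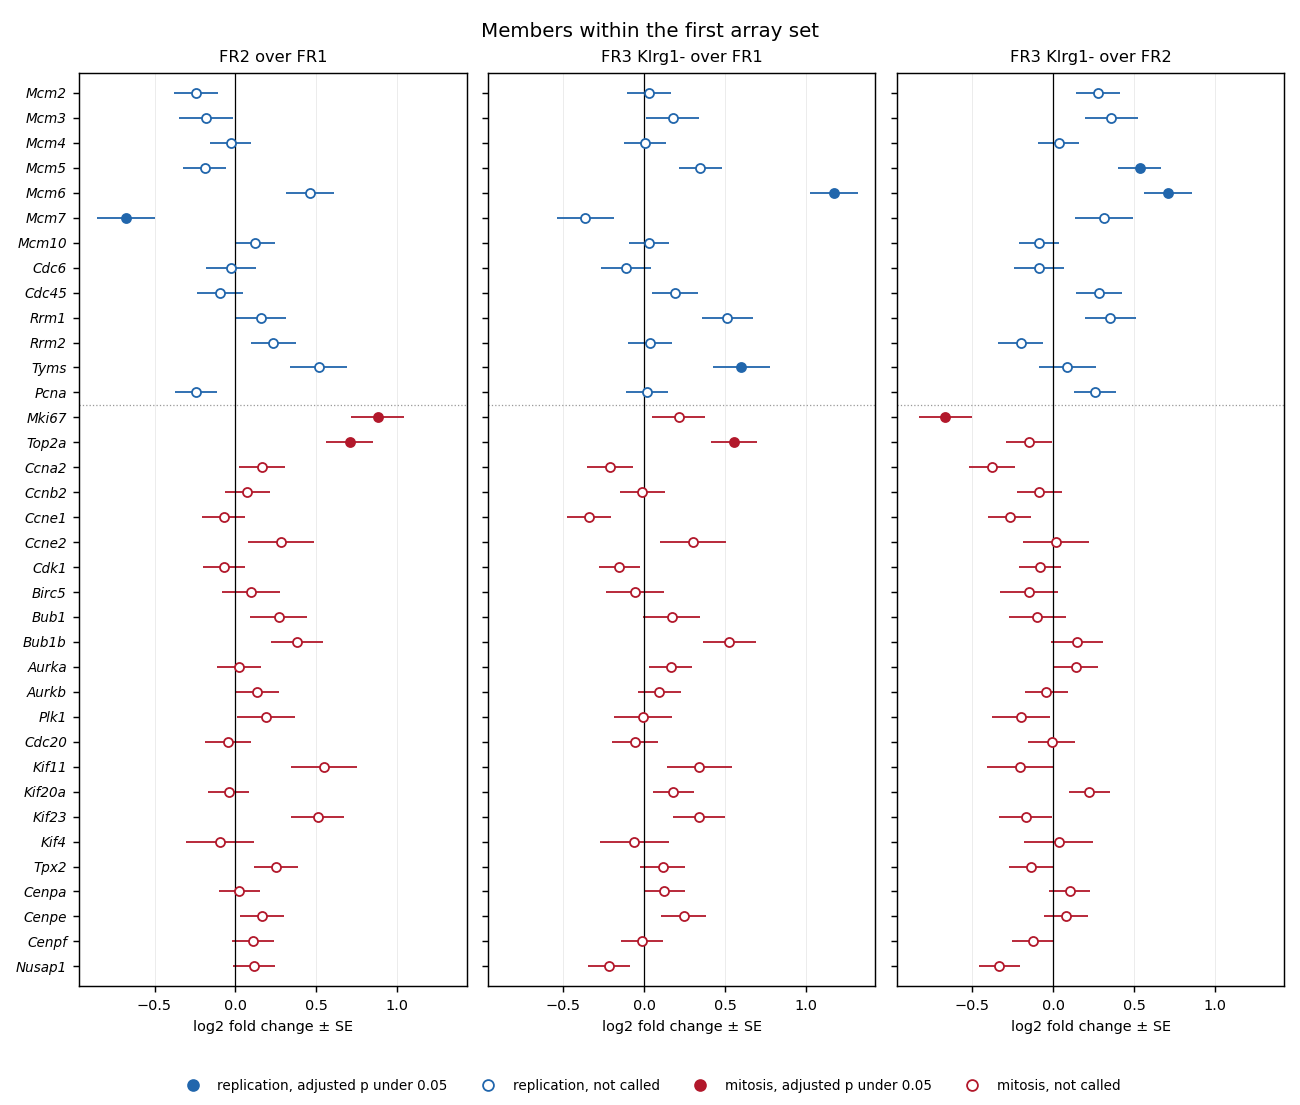
Log2 fold change with its SE (x axis) of the 36 genes in the 3 comparisons within the first array set, from limma. Filled points passed an adjusted p of 0.05: Mki67 and Top2a above and Mcm7 below 0 for FR2 over FR1, Mcm6, Tyms and Top2a above 0 for FR3 Klrg1- over FR1, and Mcm5 and Mcm6 above and Mki67 below 0 for FR3 Klrg1- over FR2.

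FR3 Klrg1+ was set against FR3 Klrg1- replicates 3 and 4, the arrays of the second set, to ask what differs with Klrg1 among CD69+ cells. FR3 Klrg1+ had 1 array, and its spread was taken to be that of the other groups. None of the 36 genes passed in limma: 0 of 13 replication and 0 of 23 mitosis genes, with 1 and 6 at an unadjusted p under 0.05, while 2.14% of all genes were called higher and 2.82% lower. The replication genes had 11 of 13 values below 0, with a median of -0.24, against 0.00 over all genes. The mitosis genes had 13 of 23 below 0 and a median of -0.01.

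Pcna was at 11.22 in FR3 Klrg1+, against 11.56 and 11.62 in FR3 Klrg1- (-0.37 ± 0.16, adjusted p = 0.208). Rrm2 was at 6.80 in FR3 Klrg1+, against 7.17 and 7.09 in FR3 Klrg1- (-0.335 ± 0.17), and Cdc6 at 5.93, against 6.06 and 6.58 in FR3 Klrg1- (-0.385 ± 0.19). The single array lay below both others for these genes. Birc5 was at 5.75 in FR3 Klrg1+, against 6.32 and 6.67 in FR3 Klrg1- (-0.75 ± 0.22, adjusted p = 0.065). Its call changed with the setting. It passed without genes under percentile 40, with the arrays of the second set alone and without FR3 Klrg1- replicate 1 or 2. With a variance trend, quantile normalization, array weights, the mean over probe sets or no array set in the fit it did not pass. All of these fits rest on 1 FR3 Klrg1+ array. Mki67 lay the other way, at 8.30 in FR3 Klrg1+, against 7.57 and 7.93 in FR3 Klrg1- (0.55 ± 0.20, adjusted p = 0.138), and so did Ccnb2 (0.41 ± 0.17) and the chromokinesin Kif4 (0.59 ± 0.26). Leaving out FR3 Klrg1- replicate 3 or 4 left 1 array on each side of this comparison, so only fold changes are given for it. Without replicate 3 they were -0.645 for Cdc6, -0.92 for Birc5 and 0.93 for Kif4, which was dim on all 10 arrays. Without replicate 4 they were 0.73 for Mki67 and -0.74 for Plk1.

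Of the 36 other replication genes 1 fell in FR3 Klrg1+ and 0 rose, the primase subunit Prim1 (-1.37 ± 0.22, adjusted p = 0.00297). Of the 58 other mitosis genes 4 fell and 0 rose, namely the centromere gene Cenpk (-1.57 ± 0.18, adjusted p = 0.000155), the condensin subunit Ncaph (-0.70 ± 0.17), the CDK partner Cks1b (-0.66 ± 0.17) and Cep55 of the abscission machinery (-0.64 ± 0.16, all limma). Of 14 genes of the D cyclins, kinases and E2F family and of 22 CDK inhibitors and quiescence genes 0 passed, with 5 and 7 at an unadjusted p under 0.05. Of 9 macrophage and monocyte markers Fcgr1 rose, but 6 were at an unadjusted p under 0.05 and their median was -0.51, with a mean level of 5.45 in FR3 Klrg1+, against 5.67 and 5.81 in FR3 Klrg1-. The part of these markers in the values above was not tested. In the same comparison, of 7 plasma cell markers Prdm1 rose, and of 7 NK and CD8 T cell markers Prf1 rose and Klrb1c fell, while 0 of 8 B cell and 0 of 7 erythroid markers passed (0 and 2 at an unadjusted p under 0.05).

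Between the 2 sets of FR3 Klrg1- arrays 16 of the 36 genes passed. Of the 13 replication genes 7 were lower and 1 higher in the second set (replicates 3 and 4) than in the first (replicates 1 and 2), and of the 23 mitosis genes 5 were higher and 3 lower, while 18.9% of all genes were called higher and 19.3% lower. Rrm1 was at 8.38 and 7.92 in the second set, against 9.28 and 9.39 in the first (-1.18 ± 0.16, adjusted p = 2.27e-05 in limma). Mcm2 was at 7.41 and 7.30, against 8.47 and 8.51 in the first set (-1.13 ± 0.14, adjusted p = 9.43e-06). Of the 6 helicase genes named Mcm2 to Mcm7, Mcm4 had the value closest to 0 (-0.55 ± 0.13). Tyms went the other way, at 8.21 and 8.25 in the second set, against 7.03 and 7.38 in the first (1.025 ± 0.18). Nusap1 (1.04 ± 0.13), Cenpe, a kinetochore motor (0.90 ± 0.14), Birc5 (0.83 ± 0.18), Ccne1 (0.51 ± 0.13) and Kif20a (0.42 ± 0.13) were higher in the second set, and Cenpa, the centromeric histone (-0.71 ± 0.12), Bub1b (-0.46 ± 0.16) and Aurkb (-0.40 ± 0.13) lower. Of 8 Treg and T cell markers 5 were lower in the second set, Foxp3 (-0.89 ± 0.15) and Cd4 (-1.68 ± 0.13) among them, and 2 were higher, Il2ra (0.72 ± 0.12) and Cd3d (0.83 ± 0.14). The sort marker Cd69 was lower (-2.10 ± 0.17), and 4 of 9 macrophage and monocyte markers were higher. The set and any biological difference between these arrays cannot be told apart, and a level of these genes is therefore not compared between FR3 Klrg1+ and FR2 or FR1.

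The array in no group stood at 8.03 for Mki67, 8.23 for Top2a, 9.32 for Mcm6, 7.61 for Mcm5, 6.54 for Mcm7, 8.40 for Tyms, 7.91 for Rrm1 and 11.34 for Pcna.

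**Figure D5:**
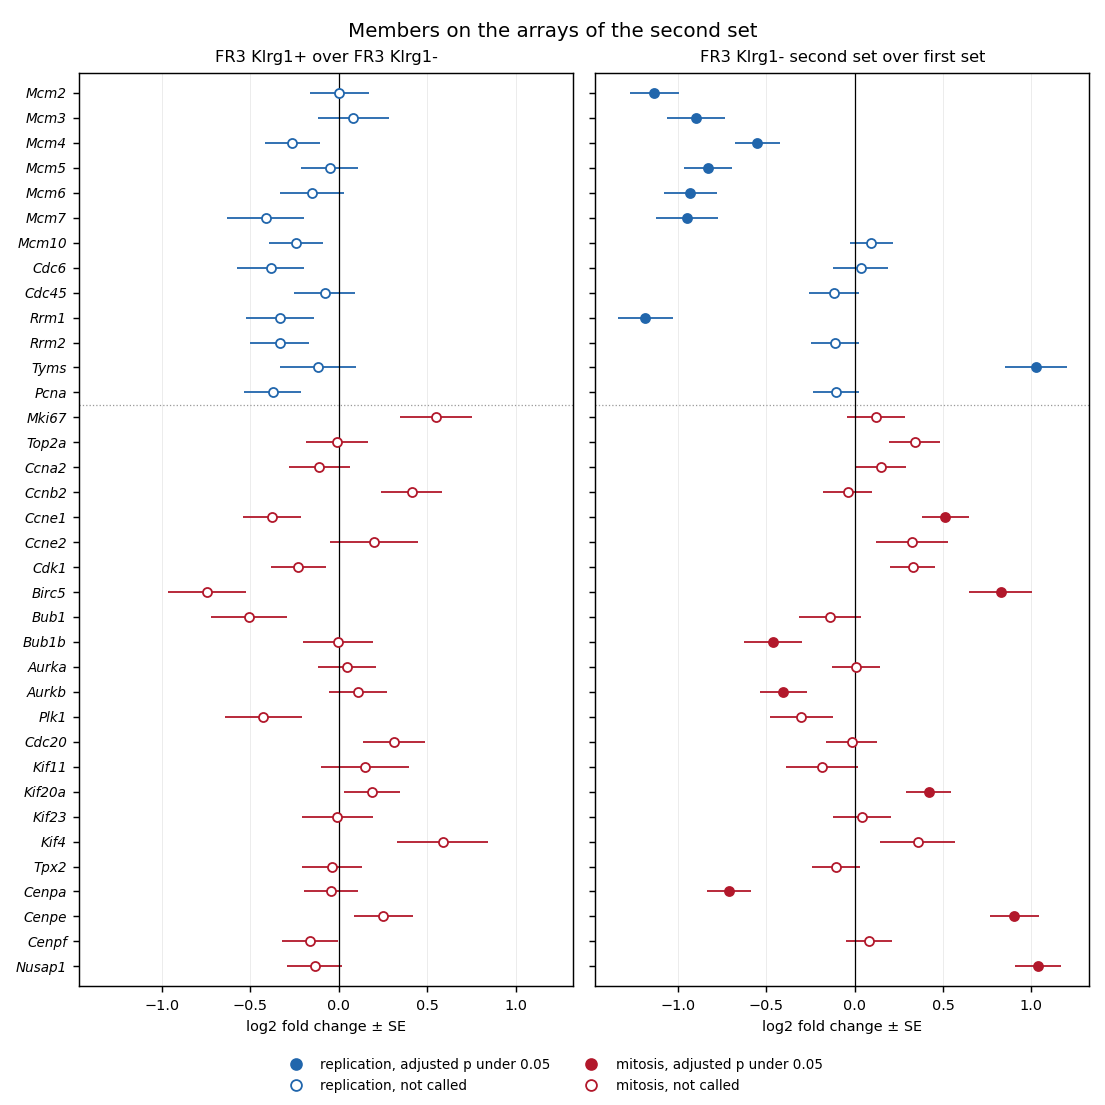
Log2 fold change with its SE (x axis) of the 36 genes, for FR3 Klrg1+ over FR3 Klrg1- within the second array set (left) and for FR3 Klrg1- of the second over the first set (right), from limma. No filled point, for an adjusted p under 0.05, appears on the left, where 11 of 13 replication genes lie below 0, and 16 appear on the right.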

How the data were processed

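RNA of sorted splenic Tregs was measured on 10 Affymetrix Mouse Gene ST 1.0 arrays, from 20 to 50 ng of RNA amplified with a NuGEN kit, per the labels' protocols. The deposited values are log2 intensities from RMA, per the submitters' processing notes, and its version and the extent of joint normalization are not stated in the labels used here. No detection calls or raw intensities were used, and the number of arrays limits precision.

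Of 35556 probe sets, 21789 had 1 gene symbol, 1621 had several and 12146 had none in the probe table. The brightest probe set per gene over the 9 grouped arrays was kept, giving 19938 genes, and no filter was applied. A linear model with group and array set as terms was fitted to the 9 arrays with limma 3.58.1 (R 4.3.3), with moderated variances and Benjamini-Hochberg adjustment over all genes at 0.05. SEs come from the moderated variance of each gene over the 9 arrays. The array sets follow array correlations, not a label. The fit was tested on simulated data. Sequences are from RefSeq tables.

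All 36 genes are described, and at most 4 passing genes per other list, direction and comparison were named by size of change. These members and lists were chosen with earlier results of these data known. Alternatives were no array set, 1 set alone, a variance trend, a filter at percentile 40, quantile normalization, array weights, the mean over probe sets, a fold threshold, the replicate number as a block and leaving out each array of the groups with replicates. Listed genes with no value, such as Ccnb1 and Cdkn1a, were not analysed here.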

Additional observations from a re-analysis of the deposited data

Results flagged for a closer look

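Of the 36 genes, 1 had an array far from the others in the group of 4 FR3 Klrg1- arrays. Ccna2 was lowest on replicate 1 at 5.64, with the nearest array at 5.87, and the gap was 0.836 of the group's range, above Dixon's critical value for 4 arrays. The 4 arrays come from the first and the second array set, and a difference between the sets can hide such an array, so this value is only a guide. Without such a difference chance gives about 1 such case in 20 groups, and 36 genes were looked at.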

How the results depend on the processing

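In the fits with the array set, 9 calls of single genes were made between groups, and each kept its direction under every alternative run. All 9 were lost when the array set was left out, which took every count between groups to 0. With a log2 change of at least 1 also required, 1 call was left (Mcm6, FR3 Klrg1- over FR1), the other counts of calls fell to 0, and the count between the sets fell to 4, against 16. Quantile normalization lost 2 calls (Mcm7 and Tyms) and added Rrm1 for FR3 Klrg1- over FR1 (adjusted p = 0.0339 in limma), taking the lower replication genes of FR2 over FR1 to 0. The mean over probe sets lost both calls of Top2a, leaving 1 higher mitosis gene for FR2 and 0 for FR3 Klrg1- over FR1. For FR2 over FR1 the variance trend and the filter at percentile 40 each called 1 higher replication gene (Mcm6), against 0, and the filter also called Kif23, giving 3 higher mitosis genes, against 2. For FR3 Klrg1- over FR1 the filter, the array weights and the first set alone called 2 higher mitosis genes, against 1, with Bub1b added, and these 3 settings and the variance trend called 3 higher replication genes, against 2, with Rrm1 added. For FR3 Klrg1+ the filter and the second set alone called 1 lower mitosis gene, against 0.

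Leaving out 1 array at a time gave these ranges. For FR2 over FR1 they were 0 to 1 higher and 0 to 1 lower replication genes and 0 to 2 higher mitosis genes. For FR3 Klrg1- over FR1 they were 1 to 3 higher replication and 0 to 2 higher mitosis genes. For FR3 Klrg1- over FR2 they were 0 to 2 higher replication and 0 to 1 lower mitosis genes. For FR3 Klrg1+ no range is given, because leaving out an FR3 Klrg1- array of the second set left 1 array on each side.

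The labels do not say whether arrays of the same replicate number belong together. Over all genes, such arrays deviated together at r = 0.181 for FR1 with FR2, 0.144 for FR1 with FR3 Klrg1- and 0.023 for FR2 with FR3 Klrg1-. FR2 replicate 2 correlated more than FR2 replicate 1 with FR1 replicate 1 (0.9866, against 0.9852) and with FR1 replicate 2 (0.985, against 0.9824). These values do not settle whether arrays of the same number are pairs, and the main fit had no term for it. With the replicate block within the first set, the calls for FR2 over FR1 were 2 higher replication genes (Mcm6 and Tyms), against 0, and 4 higher mitosis genes, against 2, and for FR3 Klrg1- over FR1 they were 3 higher replication genes, against 2, with Rrm1 added, and 2 higher mitosis genes, against 1. FR3 Klrg1+ has 1 array and no pair.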
